A study of Mus musculus with 6 samples.

Results

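The genes described here are 9 transcripts that build or serve the T cell antigen receptor: the CD3 subunits Cd3d, Cd3e and Cd3g, the coreceptor chains Cd4, Cd8a and Cd8b1, the costimulatory receptor Cd28, the kinase Lck and the transcription factor Tcf7. They were taken by symbol from the 25965 genes listed for the series, each was listed once, and all 9 were among the 16708 genes with enough reads to be tested. They were measured in bulk messenger RNA of whole lung from 6 mice with the genotype ZBTB46 DTR, described as chimeras. The DT group was 3 mice that received 3 doses of diphtheria toxin, the first of 40 ng/g given 1 day ahead of hypoxia and the later ones of 8 ng/g at intervals of 3 days. The PBS group was 3 mice given phosphate-buffered saline as vehicle. All 6 mice carried the receptor allele and all were held for 7 days in 10% oxygen, so the control lungs were hypoxic as well. The sources used here give no age, sex or strain background and do not say which cells the chimeras kept from their hosts. The toxin receptor follows Zbtb46, whose product is a factor of classical dendritic cells and which endothelium also transcribes, and no mouse without the receptor was given toxin, so an effect of losing dendritic cells and an effect of the toxin itself cannot be told apart. The study looked for processes tied to the milder pulmonary hypertension of depleted mice under hypoxia, and the comparison of DT with PBS is read here for genes of the cells to which dendritic cells present antigen.

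A T cell recognises a peptide held by a major histocompatibility complex (MHC) molecule through its antigen receptor, whose variable chains have almost no cytoplasmic tail and signal through the CD3 subunits and the zeta chain (Cd247). CD4 binds class II and CD8 binds class I MHC molecules, and both bring the kinase Lck to the receptor, where it phosphorylates the CD3 and zeta tails and so recruits the kinase Zap70. CD28 supplies the second signal when it meets CD80 or CD86 on an antigen-presenting cell, and Tcf7 encodes TCF-1, the factor that sets and keeps T cell identity and marks naive and memory cells.

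The libraries held between 16766386 and 18831937 reads in DT mice and between 18027303 and 19084657 reads in PBS mice. Values are RPM, read numbers scaled by each library's total, and the members had between 73 (Cd3d) and 957 (Tcf7) reads in a library. The scale does not follow what is known of abundant lung transcripts: Sftpc, the surfactant gene of alveolar type 2 cells, stood at 8.12 to 9.30 RPM in DT and 8.93 to 9.17 RPM in PBS lungs, Ager of alveolar type 1 cells at 53.6 to 57.9 RPM in DT and 50.04 to 54.2 RPM in PBS lungs, and the highest value of any gene was 889 RPM. These 2 were chosen after their values were seen, and the sources used here do not say whether repeat reads had been removed. The members lay at or below 0.365 reads per exonic base, and whether values at that density follow abundance was not tested. Ptprc, the pan-leukocyte gene CD45 (chosen after its values were seen), was at 55.1 RPM in PBS mouse 1, against 73.5 and 81.5 RPM in the other PBS mice and 72.9 to 80.0 RPM in DT mice. In bulk tissue, fewer T cells and less transcript per T cell cannot be told apart.

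None of the 9 genes differed between DT and PBS lungs by the test over all genes. With limma and Benjamini-Hochberg adjustment, 0 of 9 members passed an adjusted p of 0.05, where 0.281% of all tested genes did (0.275% higher and 0.00599% lower in DT), and 0 of 9 had an unadjusted p under 0.05, where 9.03% of tested genes did. With limma-voom on the recovered reads, 0 of 9 passed as well. At an unadjusted p under 0.05, Tcf7 passed, lower in DT, under both other scalings and without DT mouse 1. Without PBS mouse 3, Cd28 was the 1 that did, higher in DT. In each of these fits 1 of 9 members passed, where between 1127 and 1680 of the 16708 tested genes did. The groups overlapped for every member, whereas 14.4% of tested genes had groups that did not overlap. The log2 fold change of DT over PBS, on the log2(RPM + 1) scale, was negative for 7 of 9 members, against 49.6% of tested genes, with a median of -0.10, against 0.00 over all genes. Fold changes on this scale understate those of low genes. The 95% interval of each member included 0, and the 9 intervals together ran from -0.60 to 0.70.

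**Figure D1:**
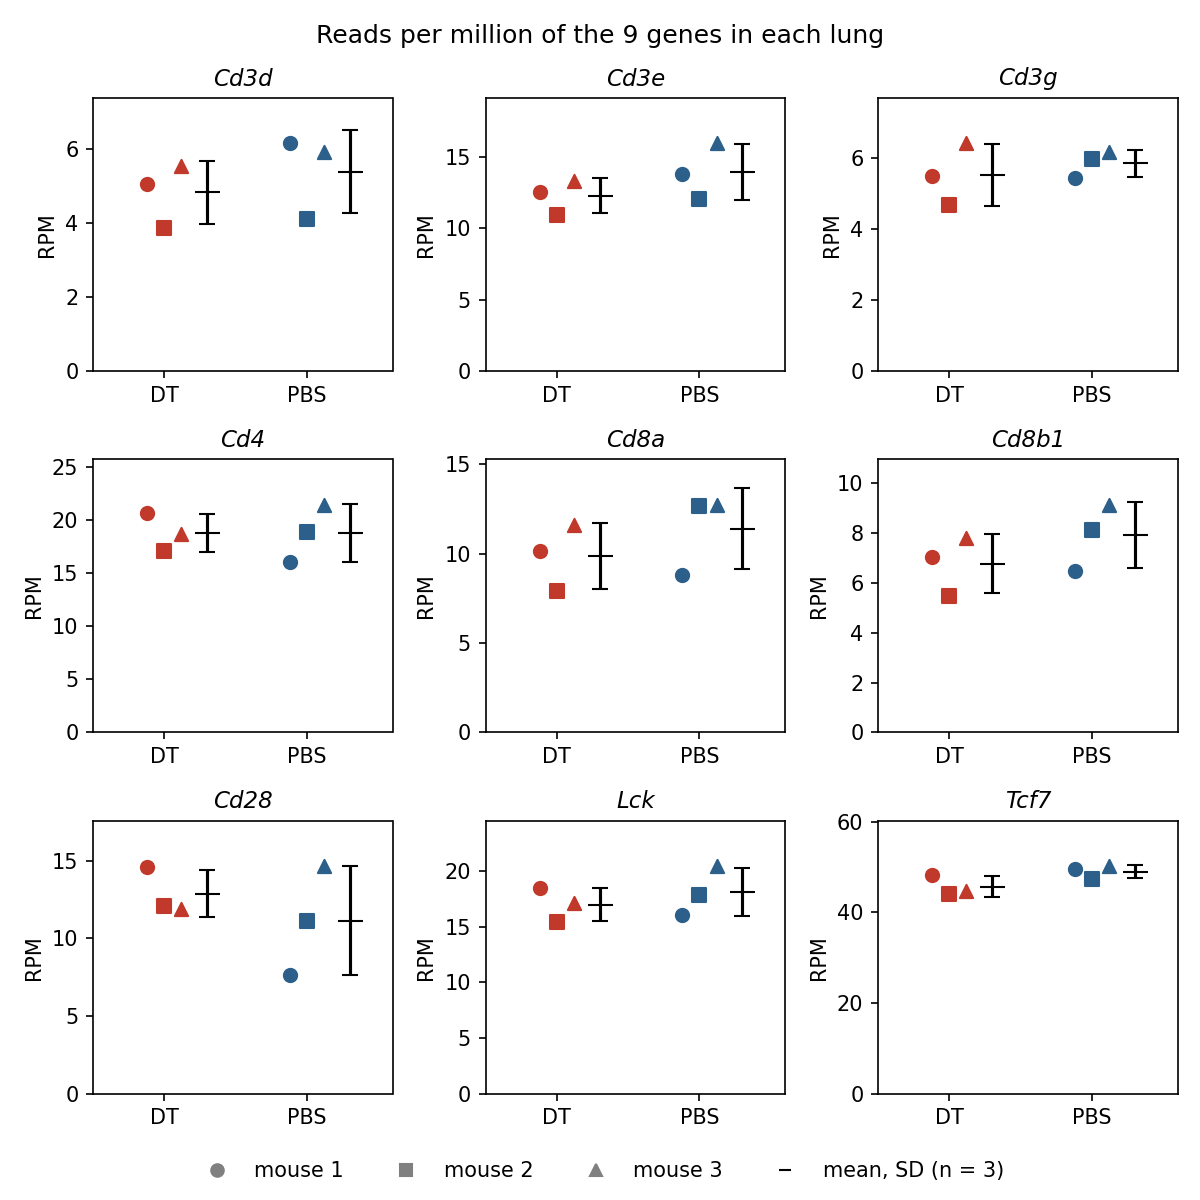
RPM (vertical axis, from 0) of each of the 9 genes in 3 DT lungs (left) and 3 PBS lungs (right), with 1 symbol per mouse and the mean and SD beside them. The groups overlap in every panel, DT mouse 2 is the lowest of the 6 lungs in 7 panels, and PBS mouse 1 is the lowest for Cd4 and Cd28.

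The CD3 genes lie together on chromosome 9 of build mm10. Cd3g (identifier ENSMUSG00000002033, 44969572 to 44980431, minus strand) and Cd3d (ENSMUSG00000032094, 44981793 to 44987052, plus strand) are transcribed away from each other from start sites 1355 bases apart, and Cd3e (ENSMUSG00000032093, 44998743 to 45009590, minus strand) follows. Their start-site windows are shown because these subunits enter the same complex and their genes are neighbours. The windows are RefSeq sequences of GRCm38.p6, each 300 bases from 250 before the start site, at chr9:44980382-44980681 on the minus strand for Cd3g, chr9:44981536-44981835 on the plus strand for Cd3d and chr9:45009562-45009861 on the minus strand for Cd3e. Capitals mark the letters TGNGGT of the RUNX motif, found on either strand.
Cd3g: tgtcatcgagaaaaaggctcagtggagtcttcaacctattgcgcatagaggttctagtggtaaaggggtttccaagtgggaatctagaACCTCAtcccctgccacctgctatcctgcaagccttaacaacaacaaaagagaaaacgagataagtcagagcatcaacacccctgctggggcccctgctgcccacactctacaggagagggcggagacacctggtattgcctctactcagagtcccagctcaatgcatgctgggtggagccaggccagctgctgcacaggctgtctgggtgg
Cd3d: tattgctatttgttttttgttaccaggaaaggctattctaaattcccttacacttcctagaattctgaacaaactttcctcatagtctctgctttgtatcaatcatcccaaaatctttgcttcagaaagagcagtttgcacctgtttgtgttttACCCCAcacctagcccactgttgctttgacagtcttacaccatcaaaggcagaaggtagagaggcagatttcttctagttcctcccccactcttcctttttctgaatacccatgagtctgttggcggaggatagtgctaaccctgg
Cd3e: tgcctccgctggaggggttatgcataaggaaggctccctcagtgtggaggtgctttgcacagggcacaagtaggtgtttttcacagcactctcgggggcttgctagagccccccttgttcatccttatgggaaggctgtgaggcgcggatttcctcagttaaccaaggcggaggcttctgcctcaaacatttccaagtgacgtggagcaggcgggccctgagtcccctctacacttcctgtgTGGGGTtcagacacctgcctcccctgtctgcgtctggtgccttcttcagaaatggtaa
Each window held 1 such match, as did 45.8% of all 32851 promoter windows in the table at least once. The TCF/LEF letters CTTTGA, searched on both strands, occurred 2 times in the Cd3d window and in neither of the other CD3 windows, against 16.0% of all windows. Of the other members' windows, that of Cd8a held 1 RUNX match, those of Lck held 2 and 0, and neither window of Tcf7 held any. A match describes the letters and is no evidence of binding.

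Cd3e encodes the epsilon subunit, which pairs with both delta and gamma. It stood at 12.5, 10.9 and 13.3 RPM in DT mice 1 to 3, against 13.8, 12.04 and 15.9 RPM in PBS mice 1 to 3. The highest values were PBS and the lowest DT, but the groups shared the range between 12.04 and 13.3 RPM. The means were 12.3 ± 1.22 RPM in DT and 13.9 ± 1.95 RPM in PBS (SD, n = 3 each), a log2 fold change of -0.17 ± 0.13 (standard error; 95% interval -0.46 to 0.12; limma adjusted p = 0.756). It was -0.07 without PBS mouse 3, -0.09 without DT mouse 2 and -0.26 without PBS mouse 2. An annotated antisense transcript, Gm48719, shares 135 exonic bases with Cd3e, and since nothing says whether counting used strand, reads of both cannot be told apart there.

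Cd3d, the delta subunit, had 5.07, 3.88 and 5.55 RPM in DT mice 1 to 3, against 6.16, 4.10 and 5.92 RPM in PBS mice 1 to 3. Each group had 1 low lung, mouse 2, beside higher ones. Its log2 fold change was -0.13 ± 0.18 (95% interval -0.54 to 0.29; limma adjusted p = 0.894) and shrank to -0.00 without DT mouse 2. Cd3g, the gamma subunit, had 5.49, 4.67 and 6.42 RPM in DT mice 1 to 3, against 5.44, 5.97 and 6.18 RPM in PBS mice 1 to 3. The highest and the lowest of the 6 values were both DT. Its log2 fold change was -0.08 ± 0.14 (95% interval -0.40 to 0.24; limma adjusted p = 0.920) and turned to 0.02 without DT mouse 2.

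On average the CD8 chains were lower in DT and Cd4 was level, but no difference passed. The ratio of Cd4 to Cd8a, given below, did not separate the groups. Cd4 (ENSMUSG00000023274, chromosome 6, 124864692 to 124888221, minus strand) marks helper and regulatory T cells, and some dendritic and innate lymphoid cells of the mouse carry it too. It stood at 20.6, 17.1 and 18.7 RPM in DT mice 1 to 3, against 16.0, 18.9 and 21.4 RPM in PBS mice 1 to 3. The PBS lungs spanned the whole DT range. The means were 18.8 ± 1.77 RPM in DT and 18.8 ± 2.70 RPM in PBS (SD, n = 3 each), with a log2 fold change of 0.01 ± 0.12 and a 95% interval of -0.27 to 0.28 (limma adjusted p = 0.992). The log2 fold change turned to -0.10 without PBS mouse 1 and -0.06 without DT mouse 1, and was 0.10 without PBS mouse 3.

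Cd8a (ENSMUSG00000053977, chromosome 6, 71373427 to 71379171, plus strand) encodes the CD8 alpha chain of cytotoxic T cells, which also forms homodimers on some dendritic and innate-like lymphocytes. It had 10.1, 7.91 and 11.6 RPM in DT mice 1 to 3, against 8.82, 12.7 and 12.7 RPM in PBS mice 1 to 3. The 2 highest lungs were PBS and the lowest was DT, with PBS mouse 1 inside the DT range. The means were 9.88 ± 1.85 RPM in DT and 11.4 ± 2.25 RPM in PBS (SD, n = 3 each). Its log2 fold change was -0.19 ± 0.18 (95% interval -0.60 to 0.22; limma adjusted p = 0.819), and it was -0.35 without PBS mouse 1 and -0.05 without DT mouse 2. Cd8b1 (ENSMUSG00000053044, chromosome 6, 71322836 to 71337477, plus strand) encodes the beta chain, which is more restricted to conventional CD8 T cells. It had 7.04, 5.47 and 7.78 RPM in DT mice 1 to 3, against 6.49, 8.10 and 9.12 RPM in PBS mice 1 to 3. As for Cd8a, PBS mice 2 and 3 were the highest and PBS mouse 1 lay among the DT lungs. Its log2 fold change was -0.20 ± 0.17 (95% interval -0.58 to 0.18; limma adjusted p = 0.783), and it was -0.32 without PBS mouse 1 and -0.07 without DT mouse 2.

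Cd28 (ENSMUSG00000026012, chromosome 1, 60716800 to 60773359, plus strand), the receptor for CD80 and CD86, was the member with the largest positive average. It stood at 14.6, 12.1 and 11.9 RPM in DT mice 1 to 3, against 7.66, 11.1 and 14.6 RPM in PBS mice 1 to 3. The DT lungs lay within the PBS range, DT mouse 1 just under PBS mouse 3, and PBS mouse 1 was far below every other lung. The means were 12.9 ± 1.51 RPM in DT and 11.1 ± 3.48 RPM in PBS (SD, n = 3 each), a log2 fold change of 0.23 ± 0.20 (95% interval -0.24 to 0.70; limma adjusted p = 0.803). Without PBS mouse 1 the log2 fold change was 0.01, and without PBS mouse 3 it was 0.43.

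Lck (ENSMUSG00000000409, chromosome 4, 129548344 to 129573641, minus strand), the coreceptor-bound kinase, is also used by natural killer cells. It had 18.4, 15.4 and 17.1 RPM in DT mice 1 to 3, against 16.0, 17.9 and 20.4 RPM in PBS mice 1 to 3. The DT and PBS lungs interleaved, and the log2 fold change was -0.08 ± 0.11 (95% interval -0.34 to 0.17; limma adjusted p = 0.882). It came to 0.00 without PBS mouse 3. Tcf7 (ENSMUSG00000000782, chromosome 11, 52252371 to 52283014, minus strand) is also active in innate lymphoid cells. It stood at 48.3, 44.0 and 44.8 RPM in DT mice 1 to 3, against 49.5, 47.3 and 50.1 RPM in PBS mice 1 to 3. DT mice 2 and 3 lay below every PBS lung, and DT mouse 1 lay between PBS mice 2 and 1. The means were 45.7 ± 2.25 RPM in DT and 49.0 ± 1.48 RPM in PBS (SD, n = 3 each). Its log2 fold change of -0.10 ± 0.05 was small but had the narrowest interval of the members, -0.22 to 0.03, and the lowest adjusted p among them (limma adjusted p = 0.655).

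**Figure D2:**
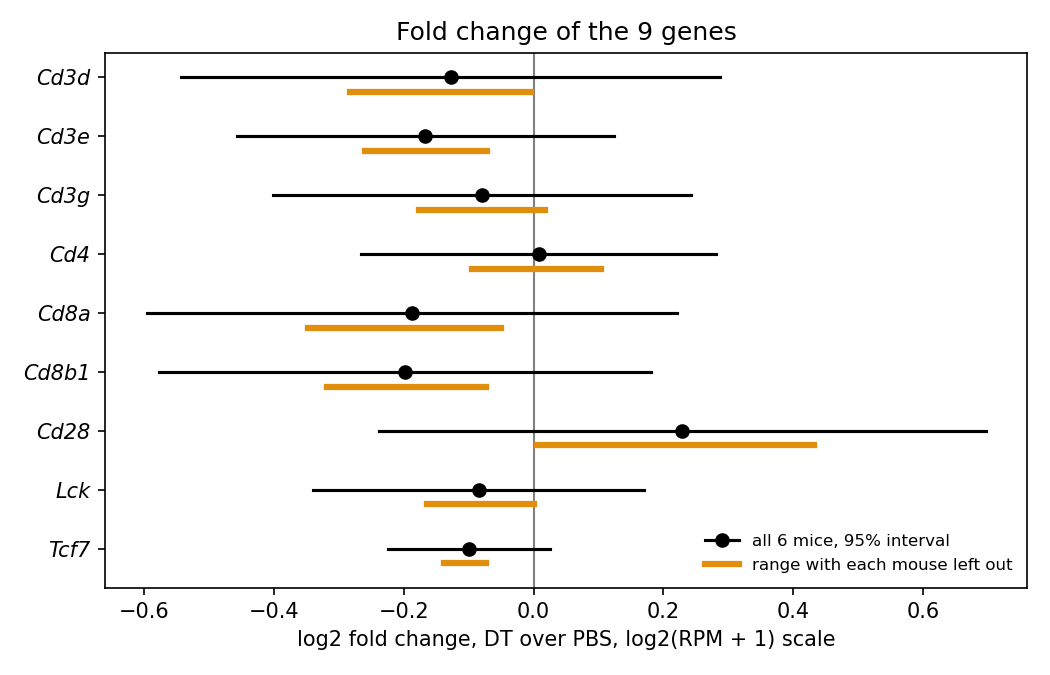
Log2 fold change of DT over PBS on the log2(RPM + 1) scale (horizontal axis) for the 9 genes (rows), with points for all 6 mice, black lines for 95% intervals from limma and orange bars for the range when each mouse is left out. Every black line crosses 0, from the narrow interval of Tcf7 (-0.22 to 0.03) to the wide one of Cd28 (-0.24 to 0.70).

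Single lungs moved the members together. DT mouse 2 was the lowest of the 6 lungs for 7 of 9 members, while it was the lowest for 23.8% of all tested genes. PBS mouse 3 was the highest for 7 of 9 members, against 12.6% of all tested genes. Members from the same cells share such shifts and are not independent counts. Averaged over the 9 members, the deviation from the 6-mouse mean on the log2(RPM + 1) scale was 0.04, -0.21 and 0.05 in DT mice 1 to 3, against -0.10, 0.01 and 0.21 in PBS mice 1 to 3. The spread within each group was therefore larger than the distance between the groups. Without DT mouse 2 the median log2 fold change of the members was -0.02 and 6 were negative. Without PBS mouse 3 the median was -0.06 and 6 were negative. Without PBS mouse 1 it was -0.13 and 8 were negative, and without DT mouse 3 it was -0.18 and 7 were negative. No member passed in any of these fits, where the lowest limma adjusted p of a member was 0.765 without DT mouse 2, 0.512 without PBS mouse 3, 0.562 without PBS mouse 1 and 0.864 without DT mouse 3.

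Members differed in how closely they followed this shared profile. As the root mean square difference of their standardised values from the mean profile of the 9 over 6 libraries, Lck (0.330) and Cd8b1 (0.346) lay nearest and Cd28 (0.848), Cd3d (0.772) and Tcf7 (0.714) farthest. Cd28 stood out for its low value in PBS mouse 1, and Cd3d for its high value there, where it was the highest of the 6 lungs. Each member is part of the mean it was set against.

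Per exonic length, the members spanned a wide range of levels. Tcf7 had 17.4 ± 0.856 RPM per kilobase of exon in DT and 18.7 ± 0.565 in PBS (SD, n = 3 each), and over all 6 lungs it ran from 16.8 to 19.1. Lck followed at 5.79 ± 0.518 in DT and 6.18 ± 0.746 in PBS, then Cd8b1 at 4.56 ± 0.795 in DT and 5.33 ± 0.893 in PBS, and Cd4 at 4.67 ± 0.439 in DT and 4.66 ± 0.670 in PBS. Below them came Cd3e at 3.01 ± 0.298 in DT and 3.41 ± 0.477 in PBS, Cd8a at 2.72 ± 0.509 in DT and 3.14 ± 0.617 in PBS, and Cd3d at 2.66 ± 0.474 in DT and 2.97 ± 0.619 in PBS. Cd28 (2.10 ± 0.246 in DT and 1.82 ± 0.569 in PBS) and Cd3g (1.69 ± 0.267 in DT and 1.79 ± 0.118 in PBS) were lowest. The ranges over 6 lungs separated Tcf7 from Lck and Cd4 from Cd3e, and overlapped between all other neighbours in this order. Cd8b1 was above Cd4 in 4 of 6 lungs, Cd8a above Cd3d in 4 of 6, and Cd28 above Cd3g in 3 of 6. Lengths are those of all annotated exons of a gene, so a gene with long or rarely used exons, such as Cd28 with 6122 bases, is placed lower. Since the scale did not follow the known abundance of lung transcripts such as Sftpc, this order may not be one of abundance.

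**Figure D3:**
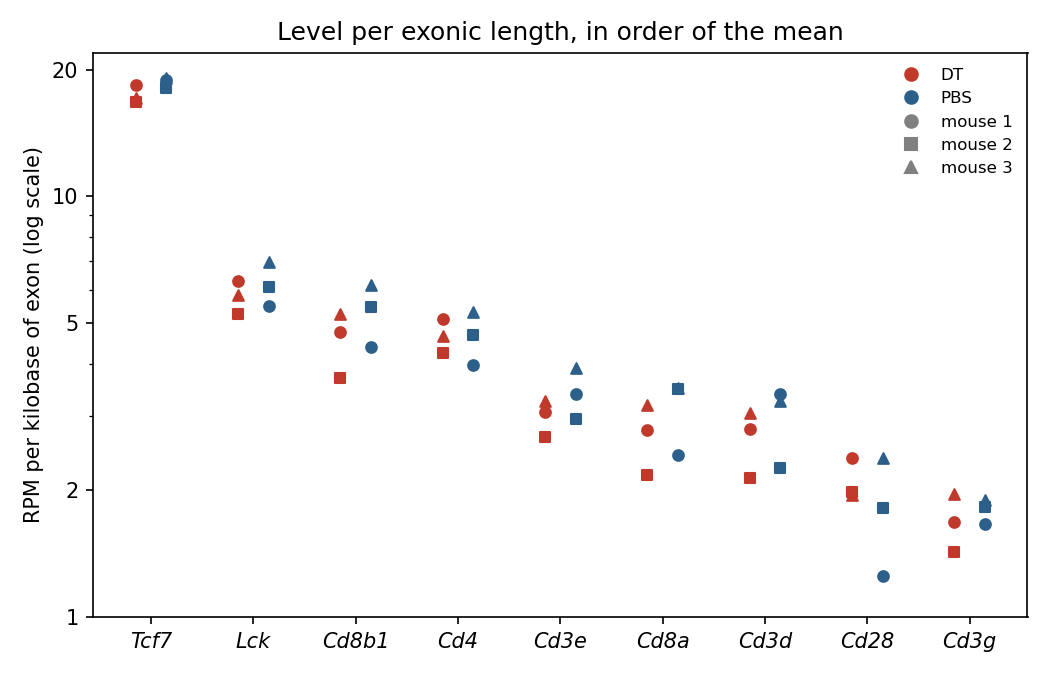
Level of each gene in RPM per kilobase of annotated exon (vertical log axis), ordered by its mean over 6 lungs, with DT lungs left of PBS lungs at each gene and 1 symbol per mouse. Tcf7 lies between 16.8 and 19.1 in every lung, above the other 8 genes, which lie between 1.25 (Cd28) and 6.96 (Lck).

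Ratios between members, which do not depend on library scaling, did not separate the groups. The ratio of Cd4 to Cd8a in RPM was 2.03, 2.16 and 1.61 in DT mice 1 to 3, against 1.82, 1.49 and 1.68 in PBS mice 1 to 3. DT mice 1 and 2 were above every PBS lung and DT mouse 3 was not. The means were 1.94 ± 0.286 in DT and 1.66 ± 0.166 in PBS, a log2 difference of 0.21 (2-sided exact permutation p = 0.3, n = 3 each; 0.45 when adjusted over the 3 ratios). It was 0.13 without DT mouse 2, 0.14 without PBS mouse 2 and 0.34 without DT mouse 3. The ratio of Cd8b1 to Cd8a was 0.686 ± 0.0124 in DT and 0.697 ± 0.0514 in PBS, so the beta chain kept a nearly constant proportion to the alpha chain in all 6 lungs, between 0.639 and 0.736 (exact permutation p = 0.8, adjusted 0.8). The ratio of Cd4 to Cd3e was 1.54 ± 0.124 in DT and 1.36 ± 0.203 in PBS, a log2 difference of 0.19 (exact permutation p = 0.3, adjusted 0.45), which was 0.08 without PBS mouse 1 and 0.30 without PBS mouse 2. With 3 against 3 mice this test cannot give a p below 0.1.

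**Figure D4:**
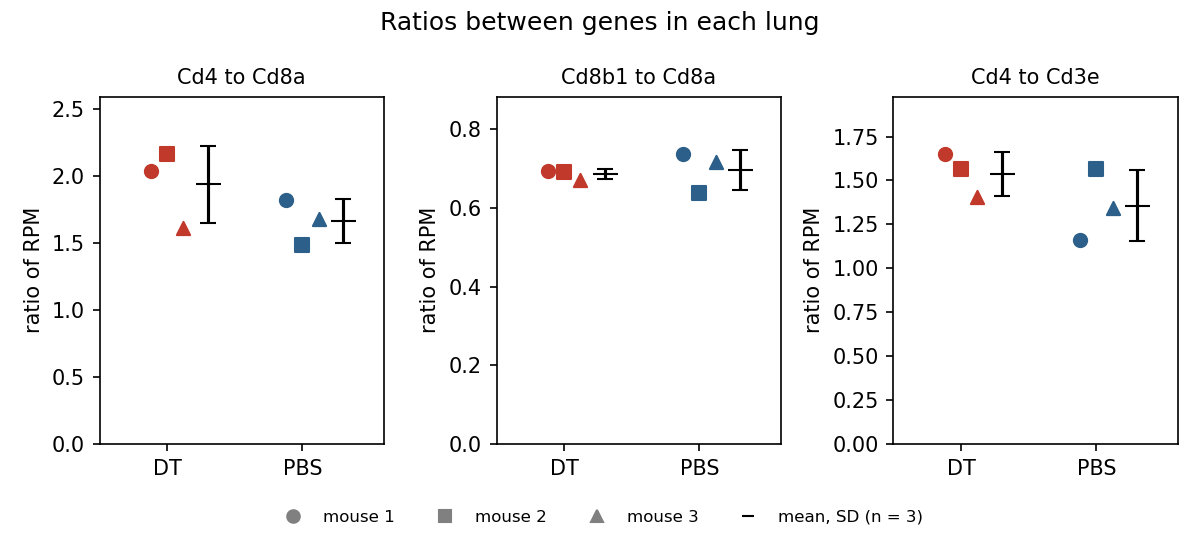
Ratio of RPM between pairs of members (vertical axis, from 0) in 3 DT lungs (left) and 3 PBS lungs (right), with 1 symbol per mouse and the mean and SD beside them. The ratio of Cd8b1 to Cd8a stays between 0.639 and 0.736 in the 6 lungs, and the other ratios overlap between the groups.

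The rest of the receptor pathway was read from gene lists, described by counts and medians with no test of the list. Of the 147 distinct genes tested on the other lists, none passed with limma or limma-voom, and 29 had an unadjusted p under 0.05, 9 higher and 20 lower in DT. Over all tested genes 9.03% had one, 836 higher and 673 lower. The 9 higher include Rag1, which reached the filter on low values through the DT lungs alone. The lists were chosen with earlier results of these data known, so these counts are no measure of enrichment. The 20 genes of proximal signalling, all tested, had 0 higher and 0 lower over all genes, with 9 negative and 11 positive fold changes and a median of 0.04. Their median was 0.12 without PBS mouse 3, -0.12 without PBS mouse 1, -0.01 without DT mouse 1 or DT mouse 3 and 0.01 without PBS mouse 2. Fyn, a kinase related to Lck, averaged 75.4 ± 1.71 RPM in DT and 83.1 ± 6.04 RPM in PBS (log2 fold change -0.14 ± 0.06, limma adjusted p = 0.541), and its groups did not overlap, as in 6.79% of tested genes lower in DT. The direct partners Zap70 and Cd247 were chosen after their values were seen. Zap70 had 18.0, 16.8 and 18.3 RPM in DT mice 1 to 3, against 24.5, 19.4 and 19.5 RPM in PBS mice 1 to 3. Its groups did not overlap, and its log2 fold change was -0.24 ± 0.11 (limma adjusted p = 0.552). Cd247 averaged 12.03 ± 1.33 RPM in DT and 12.9 ± 1.34 RPM in PBS (-0.09 ± 0.12). The constant regions of the variable receptor chains, 7 genes on the list, were not matched among the listed genes, so they were not analysed here.

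T cell identity and recirculation genes (12 tested, 0 higher, 0 lower, 9 negative) had a median of -0.11, which was -0.16 without PBS mouse 1 and -0.06 without PBS mouse 3. Their most abundant members were Ets1, a transcription factor that endothelium also makes, at 184 ± 6.94 RPM in DT and 189 ± 10.1 RPM in PBS, and S1pr1, the receptor for exit from lymphoid organs and an endothelial gene, at 86.5 ± 7.47 RPM in DT and 79.2 ± 2.73 RPM in PBS. Regulatory and activated T cell genes (12 tested, 0 higher, 0 lower, 8 negative) had a median of -0.09, which was 0.01 without PBS mouse 3, -0.04 without DT mouse 2 or DT mouse 3 and -0.15 without DT mouse 1. Ikzf2, which encodes Helios, averaged 23.3 ± 2.57 RPM in DT and 21.6 ± 4.43 RPM in PBS, and Il2ra, the interleukin-2 receptor alpha chain, 8.03 ± 1.06 RPM in DT and 9.61 ± 1.75 RPM in PBS. Helper and effector genes (8 of 12 tested, 0 higher, 0 lower, 5 negative) had a median of -0.15, which was -0.05 without PBS mouse 3 and -0.09 without DT mouse 2. Among them was Cxcr3, a chemokine receptor of effector T cells, at 6.37 ± 1.73 RPM in DT and 9.23 ± 2.17 RPM in PBS. The effector cytokines Il4, Il5, Il13 and Il17a were listed but had too few reads for the test.

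Genes that receptor signalling induces, which other cells induce too, had 0 higher and 0 lower of 10 tested and a median of -0.01, between -0.03 (without DT mouse 1 or PBS mouse 2) and 0.04 (without DT mouse 2) when 1 mouse was left out. It was 0.02 without PBS mouse 1 or PBS mouse 3. The tested genes of this list include Il2, which reached the filter on low values through the PBS lungs alone. Nfatc1 averaged 133 ± 14.97 RPM in DT and 134 ± 5.55 RPM in PBS, and the orphan receptor gene Nr4a1 63.2 ± 0.927 RPM in DT and 70.1 ± 5.65 RPM in PBS. Of this list, Myc had the lowest adjusted p (chosen after its values were seen), with 46.5, 47.4 and 50.4 RPM in DT mice 1 to 3, against 35.0, 26.9 and 35.4 RPM in PBS mice 1 to 3, and a log2 fold change of 0.56 ± 0.10 that did not pass (limma adjusted p = 0.103). Every DT lung was above every PBS lung, as in 7.65% of tested genes.

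Ligands for the receptor complex on other cells showed no call either. MHC genes (9 tested, 0 higher, 0 lower) had a median of -0.00, between -0.05 (without DT mouse 1) and 0.03 (without DT mouse 2) when 1 mouse was left out, with the class II regulator Ciita at 96.5 ± 6.95 RPM in DT and 107 ± 1.87 RPM in PBS and the peptide transporter Tap1 at 86.8 ± 2.41 RPM in DT and 94.0 ± 6.99 RPM in PBS. Costimulatory ligands and survival cytokines (9 of 10 tested, 0 higher, 0 lower, 7 negative) had a median of -0.07, which was -0.14 without DT mouse 1. In that list the inhibitory ligand Cd274 averaged 63.3 ± 5.30 RPM in DT and 64.7 ± 4.997 RPM in PBS and Icosl, the ligand of ICOS, 54.4 ± 5.21 RPM in DT and 57.6 ± 1.52 RPM in PBS. The CD28 ligands, named for their link to Cd28, had log2 fold changes of -0.07 ± 0.17 for Cd80 and -0.30 ± 0.23 for Cd86 (limma adjusted p = 0.944 and 0.762). T cell attracting chemokines (7 of 10 tested, 0 higher, 0 lower) had a median of 0.00, with single genes from -1.46 to 0.52. That median ran from -0.04 without DT mouse 1 to 0.05 without PBS mouse 1. Cxcl12 averaged 321 ± 16.7 RPM in DT and 321 ± 21.0 RPM in PBS and Cxcl16 63.2 ± 4.22 RPM in DT and 60.2 ± 2.95 RPM in PBS. The low end was Ccl22, a dendritic cell chemokine for CCR4 on T cells, named after its values were seen. Ccl22 had 18.7, 9.03 and 4.46 RPM in DT mice 1 to 3, against 16.3, 33.5 and 36.7 RPM in PBS mice 1 to 3. PBS mouse 1 lay below DT mouse 1, and the log2 fold change of -1.46 ± 0.45 did not pass (limma adjusted p = 0.411).

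Lists of cells that could carry member transcripts were read beside them, and their part in the members' values was not tested. Natural killer genes, which share Lck and Tcf7 with T cells, were all negative (12 of 12, 0 called, median -0.25). The median was -0.48 without PBS mouse 1, -0.39 without DT mouse 2, -0.16 without DT mouse 1 and -0.15 without PBS mouse 3. Natural killer genes had summed levels of 75.3 to 97.1 RPM in DT and 75.4 to 128 RPM in PBS lungs. The natural killer receptor Ncr1 had 3.16, 5.42 and 3.92 RPM in DT mice 1 to 3, against 2.83, 5.12 and 7.91 RPM in PBS mice 1 to 3. Among these genes Il2rb averaged 23.7 ± 0.699 RPM in DT and 24.5 ± 5.54 RPM in PBS, and Prf1 12.3 ± 2.97 RPM in DT and 18.2 ± 6.01 RPM in PBS. Of 12 B cell genes, Ighm and Ighd were not matched among the listed genes. The median of the other B cell genes (10 tested, 0 called, 9 negative) was -0.29. It was -0.49 without PBS mouse 1, -0.14 without DT mouse 3 and -0.09 without PBS mouse 3. These genes summed to 105 to 144 RPM in DT and 111 to 188 RPM in PBS lungs, with Cd22 at 31.2 ± 4.48 RPM in DT and 34.1 ± 9.17 RPM in PBS and Fcer2a at 15.8 ± 3.27 RPM in DT and 17.3 ± 4.53 RPM in PBS.

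Classical dendritic cell genes (12 tested, 0 called, 11 negative) had a median of -0.86, which was -1.36 without PBS mouse 1 and -0.55 without PBS mouse 3. They summed to 176 to 217.5 RPM in DT and 201 to 299 RPM in PBS lungs. Xcr1, the chemokine receptor of cDC1 cells, which in lymphoid organs carry CD8 alpha, had 6.50, 3.61 and 0.272 RPM in DT mice 1 to 3, against 4.55, 17.3 and 20.5 RPM in PBS mice 1 to 3. For Xcr1, PBS mouse 1 lay among the DT lungs, as it did for Cd8a, Cd8b1, Lck and Cd3g. Xcr1 was lowest in DT mouse 3 and both CD8 genes in DT mouse 2. Whether cDC1 cells added to the CD8 reads was not tested. Zbtb46 averaged 84.4 ± 2.62 RPM in DT and 99 ± 9.52 RPM in PBS, and Itgax 57.8 ± 8.86 RPM in DT and 53.7 ± 11.2 RPM in PBS. Plasmacytoid dendritic cell genes (10 tested, 0 called, 5 negative) had a median of 0.10, which was -0.00 without PBS mouse 1. They summed to 344 to 371 RPM in DT and 357 to 373 RPM in PBS lungs, most of it from Tcf4 (200 ± 7.79 RPM in DT and 212 ± 14.4 RPM in PBS) and Irf8 (70.4 ± 4.62 RPM in DT and 77.1 ± 7.71 RPM in PBS), which other lung cells also express. Their defining gene Siglech had 9.78, 6.69 and 8.00 RPM in DT mice 1 to 3, against 2.05, 7.41 and 4.56 RPM in PBS mice 1 to 3. Innate lymphoid type 2 and mast cell genes (7 of 8 tested, 0 called, 3 negative) had a median of 0.09, which ran from 0.02 without PBS mouse 1 through 0.06 without DT mouse 1, 0.15 without DT mouse 3 and 0.23 without PBS mouse 2 to 0.32 without PBS mouse 3. Of these, Kit stood at 89.4 ± 11.3 RPM in DT and 102 ± 25.3 RPM in PBS and Hs3st1 at 30.9 ± 3.30 RPM in DT and 32.5 ± 3.23 RPM in PBS. Il9r (log2 fold change -0.17) was lower in DT on average as well. Higher in DT on average were Areg (0.65), Cpa3 (0.54, with as few as 9 reads in a library), Mcpt4 (0.47) and Il1rl1 (0.09).

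Thymus and lymph node genes were read to see whether neighbouring lymphoid tissue was carried along with the lung. Of 10 thymus and thymocyte genes, 5 were tested and 0 called, and Ptcra was not matched among the listed genes. No median is given, since the tested genes include Rag1, described below. The others had log2 fold changes of -0.11 (Cd1d1), -0.07 (Ccl25), 0.15 (Dntt) and 0.18 (Prss16). The listed thymus and thymocyte genes summed to 22.1 to 24.1 RPM in DT and 22.1 to 25.1 RPM in PBS lungs. Most of it came from Cd1d1 (13.2 ± 0.506 RPM in DT and 14.3 ± 0.720 RPM in PBS) and Ccl25 (6.77 ± 0.597 RPM in DT and 7.26 ± 1.66 RPM in PBS), and Rag2 had no read in any lung. Rag1, the recombinase of developing lymphocytes, was at 0.596, 1.12 and 1.47 RPM in DT mice 1 to 3, against 0.222, 0.0533 and 0 RPM in PBS mice 1 to 3. Each DT lung was above each PBS lung, as in 7.65% of tested genes, at no more than 27 reads a library. Rag1 reached the filter on low values through the DT lungs alone, so no fold change or test is given for it. Of 10 lymph node stroma genes, Fdcsp was not matched among the listed genes. Glycam1, Madcam1, Ccl21a and Ccl19 were listed but had too few reads for the test. Madcam1, named after its values were seen, had 1.01, 0.850 and 0.435 RPM in DT mice 1 to 3. In PBS mice 1 to 3 it had 0.0555, 0.213 and 0.0524 RPM, and at most 17 reads in any library. The groups overlapped for Glycam1, Ccl21a and Ccl19. Lymph node stroma genes (5 tested, 0 called) had a median of -0.05. This median was 0.14 without DT mouse 1, 0.01 without DT mouse 2, 0.13 without PBS mouse 3 and -0.09 without PBS mouse 1. Summed over the 9 listed genes, tested or not, levels were 26.3 to 32.7 RPM in DT and 21.1 to 31.7 RPM in PBS lungs. Among them, Chst4 stood at 18.6 ± 2.85 RPM in DT and 16.0 ± 4.98 RPM in PBS. Cxcl13, the B cell zone chemokine, stood at 5.25 ± 0.803 RPM in DT and 5.67 ± 0.514 RPM in PBS.

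**Figure D5:**
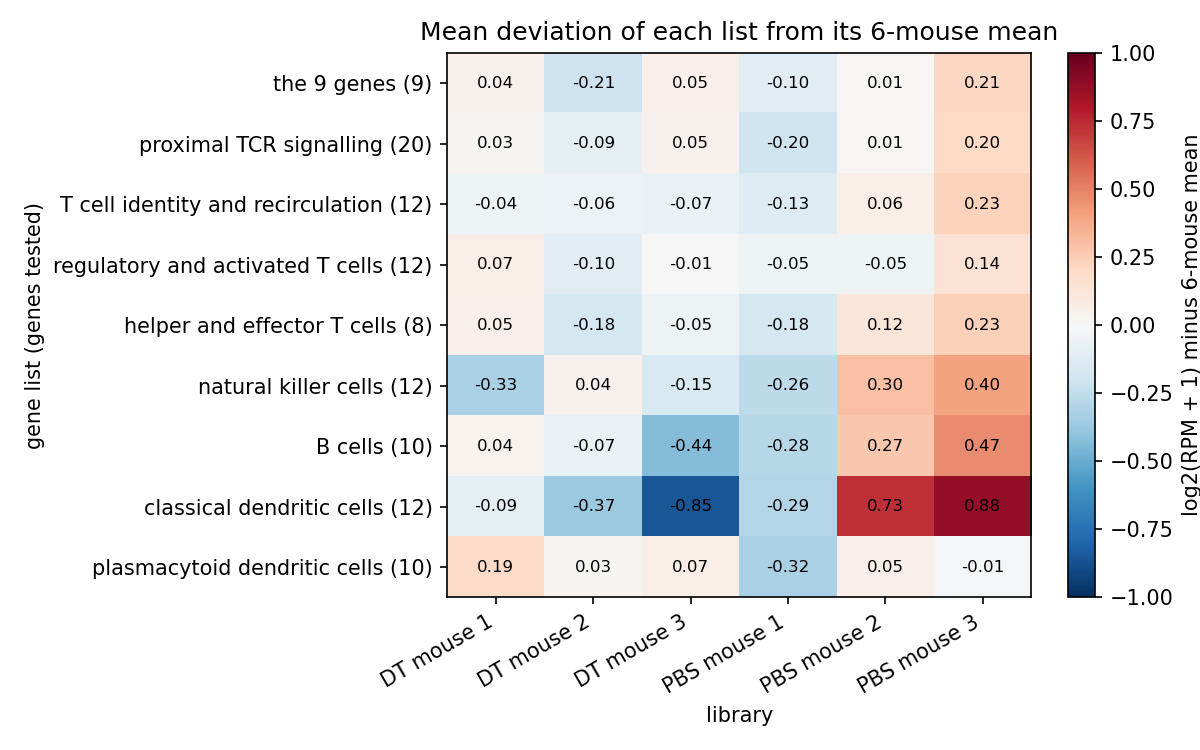
Mean deviation of each gene list (rows, with the number of genes tested) from its own mean over 6 lungs, in log2(RPM + 1) units, for DT mice 1 to 3 (left columns) and PBS mice 1 to 3 (right columns); red is above and blue below that mean. The 9 receptor genes run from -0.21 in DT mouse 2 to 0.21 in PBS mouse 3, while classical dendritic cell genes run from -0.85 in DT mouse 3 to 0.88 in PBS mouse 3.

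Across the lists, PBS mouse 3 was the highest lung for the 9 receptor genes (0.21), for natural killer genes (0.40), for B cell genes (0.47) and for classical dendritic cell genes (0.88), as mean deviations on the log2(RPM + 1) scale. PBS mouse 1 lay below its list mean in all of these (-0.10, -0.26, -0.28 and -0.29 in the same order). DT mouse 2, the lowest lung for the receptor genes (-0.21), was not low for natural killer genes (0.04).

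The genes whose profile over the 6 libraries lay nearest to the mean profile of the members were not T cell genes of these lists. By the same root mean square difference of standardised values, the nearest with a mean of at least 1 RPM included Zfp324 (0.217), Gm5422 (0.231), Galnt4 (0.264), Dcp2 (0.268), 4930431P03Rik (0.279), Pitpnm1 (0.287) and Foxk1 (0.295). Standardising removes the size of a change. Foxk1, for example, stood at 170, 163 and 170 RPM in DT mice 1 to 3, against 165, 170 and 174 RPM in PBS mice 1 to 3, with the same low DT mouse 2 and high PBS mouse 3.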

How the data were processed

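The values that the authors deposited for each library are log2 RPM, beside a symbol, an Ensembl identifier and a position on mm10. The submitters' processing notes name FastQC, Trimmomatic and mm10. Aligner and counter, and whether strand was used, were not given in the sources used here. Because the unit is log2 and not counts, count models were not the main test. Back on the linear scale, every deposited value above the lowest was a whole multiple of 1 read within 0.1%, in 100% of values in each library, and the lowest value (0.9 of a read) was set to 0. Replicate numbers come from the sample titles; nothing says how the mice were matched.

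A gene entered the test with 0.538 RPM (10 reads at median depth) or more in at least 3 libraries and 15 reads in total. On log2(RPM + 1), limma 3.58.1 in R 4.3.3 was run with a variance trend, 2-sided, Benjamini-Hochberg over all 16708 genes, threshold 0.05. It was tested on simulated data. Standardised values are z-scores over the 6 libraries. Exonic lengths are from GENCODE M21, where 25057 identifiers matched, and promoter windows from RefSeq (GRCm38.p6), which held 8 windows for 6 of the 9 members. Intervals are 95% confidence intervals from limma for the difference between the group means. Their variance comes from the spread between these mice, drawn toward the trend over all tested genes. Alternatives were median-of-ratios and upper-quartile scaling, no filter, a pseudocount of 0.1 RPM, a replicate block, leaving out each mouse, and limma-voom on recovered reads. The members and the 16 other lists were chosen with earlier results of these data known. Of each list, members past the threshold or otherwise the 2 most abundant were named, with 6 fixed marker genes and the 8 genes of nearest profile; a few genes that this rule picks are not reported here. Ccr7, Ccl19 and Ccl21a stood on 2 lists each. Plots were drawn with matplotlib 3.10.9.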

Additional observations from a re-analysis of the deposited data

How the results depend on the processing

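No receptor or coreceptor gene passed under any alternative run (0 higher and 0 lower in each). At an unadjusted limma p under 0.05, 1 of 9 passed in some runs. It was Tcf7, lower in DT, under median-of-ratios scaling (0.0416), upper-quartile scaling (0.0264) and without DT mouse 1 (0.0274). Without PBS mouse 3 it was Cd28, higher in DT (0.0398). Of the 16708 tested genes, 1638, 1680, 1127 and 1527 passed in these runs, in the same order. Of the 9 log2 fold changes, those that changed sign were Cd4, at -0.00172 under upper-quartile scaling, -0.00203 with limma-voom and from -0.10 to 0.10 with each mouse left out, Cd3g (-0.18 to 0.0171 with each mouse left out) and Lck (-0.16 to 0.000544). The log2 difference in the ratio of Cd8b1 to Cd8a ran from -0.0826 to 0.0196 with each mouse left out and turned positive without PBS mouse 1. Over all genes, 46 were higher and 1 lower, and these counts were 8 and 0 with the replicate block. Whether the numbers of the mice pair them is not known. Same-numbered mice had correlations of 0.08, 0.27 and -0.10 of their deviations from the group mean, against -0.26 to 0.14 for other pairs. Not every mouse correlated best with its own number. With deviations taken within groups of 3, these values can neither show nor exclude a pairing. In the block fit, the lowest adjusted p of a member was 0.527. Median-of-ratios scaling gave 0 lower and upper-quartile scaling 2 lower. With each mouse left out, 0 to 56 were higher (0 by limma without DT mouse 1, where 630 were higher at an unadjusted p under 0.05, and 14 without DT mouse 3) and 0 to 90 lower (90 without DT mouse 2, 10 without PBS mouse 1), and the cause was not tested. In the other lists, 0 to 1 were higher (Ccr9 without DT mouse 2) and 0 to 2 lower (Cd209a and Cd207 without PBS mouse 1). Depth limits the low members most, Cd3d having 73 to 113 reads a library.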
